A study of Homo sapiens with 6 samples.

Results

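The 10 genes described here encode heat shock chaperones of the cytosol (HSP90AA1, HSP90AB1, HSPA8, HSPA4, HSPH1, DNAJA1, DNAJB1, HSPB1) and of the mitochondrial matrix (HSPD1, HSPE1). They were picked out by symbol among 67026 genes in the deposited table, and all 10 were among the 16254 genes that passed the filter on low counts. Messenger RNA was measured by paired-end sequencing with 150-base reads in xenograft tumours grown from PC-3, a long-established line of human prostate cancer cells. The comparison was between 3 shVCAN tumours, in which a lentiviral short hairpin RNA targeted the proteoglycan gene VCAN (versican), and 3 shGFP tumours, the knockdown control with a hairpin against GFP.

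All cells of both groups had been transduced with lentivirus and selected with puromycin at 2 μg/mL. For each tumour 1200000 cells in 0.1 mL of 50% PBS and 50% Matrigel were placed under the skin of male NSG mice (NOD.Cg-Prkdcscid Il2rgtm1Wjl/SzJ) aged 4 to 5 weeks, and growth was followed for 4 weeks. These mice lack functional T, B and NK cells but keep macrophages, fibroblasts and vessels of their own. The labels name 1 hairpin treatment per group, and an effect of versican loss and an effect of that hairpin sequence cannot be told apart. The labels number the tumours and say nothing further on their origin, so p-values measure the spread between these samples, which may be technical.

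Heat shock chaperones bind unfolded or partly folded proteins and, through cycles of ATP binding and hydrolysis, help them fold. HSP70 proteins take up clients delivered by J-domain partners and release them with the help of nucleotide exchange factors, HSP90 dimers finish the folding of kinases and steroid receptors, and the HSP60 chaperonin with its lid HSP10 folds proteins inside mitochondria. Heat shock factor 1 (HSF1) raises the transcription of many of these genes under stress by binding heat shock elements, inverted repeats of the unit GAA, while other genes of the family are expressed constitutively.

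In the shVCAN tumours 4 of the 10 genes were higher, 3 were lower and 3 did not pass the test. HSPE1 (1.96-fold), HSP90AA1 (1.64-fold), HSPD1 (1.27-fold) and DNAJA1 (log2 difference 0.13, but -0.079 with a length and GC correction) were higher. DNAJB1 (0.716-fold), HSP90AB1 (0.85-fold) and HSPB1 (log2 difference -0.15, but 0.020 with scaling by library size alone) were lower. HSPA8, HSPA4 and HSPH1, the HSP70 and HSP110 genes, had log2 differences between 0.0051 and 0.083 and groups that overlapped. A gene was called at a Benjamini-Hochberg adjusted p under 0.05 in edgeR's quasi-likelihood test, and by this rule 40.3% of all tested genes were called, 19.2% higher and 21.1% lower in shVCAN tumours. Of the 10 chaperone genes 7 were called, and 2 differed by at least 1.5-fold. The CPM of the groups did not overlap for 7 of the 10 genes, and for 48.7% of all tested genes. The median log2 difference over the 10 genes was 0.077, against 0.0014 over all genes tested.

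A few facts of the whole series bear on these values. Libraries held 12959840 to 13327617 counts in shVCAN tumours and 11253058 to 12936539 counts in shGFP tumours. VCAN itself had 69, 39 and 44 counts in shVCAN tumours, against 133, 104 and 121 counts in shGFP tumours, a log2 difference of -1.54 ± 0.207 (SE; edgeR adjusted p 4.59e-07; exact two-sided permutation p 0.1, the smallest that 3 against 3 samples allow). Of 12 markers listed for PC-3 and epithelial identity, VIM, KRT19, KRT18, KRT8 and TMPRSS2 were the most abundant. TMPRSS2 had means of 147 CPM in shVCAN tumours and 159 CPM in shGFP tumours. CDH1 was lower in shVCAN tumours, at 3.60 CPM against 16.5 CPM. KLK3, which PC-3 is known not to express, had 0 counts over the 6 libraries, as had 17.1% of protein-coding genes in the table. Messenger RNAs of the mitochondrial genome took 6.43%, 6.39% and 7.63% of the counts in shVCAN tumours, against 16.2%, 13.3% and 15.1% in shGFP tumours. Scaling by library size alone, instead of by TMM, moved the median log2 difference of all genes to 0.17 and the share of calls that were higher to 73.4%, against 47.7% with TMM.

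The promoters of 7 of the 10 genes hold heat shock units within the window searched, which ran from 250 bases before to 50 bases after each RefSeq transcription start. The stretches below are shown because heat shock elements are the sequence that heat shock genes are known to share. They are 30 bases long, from RefSeq on GRCh38.p14, read 5′ to 3′ on the strand of the gene, with the units and the bases between them in capitals.
HSP90AA1: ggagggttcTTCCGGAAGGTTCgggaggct
HSP90AB1: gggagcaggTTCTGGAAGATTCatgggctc
HSP90AB1, second: ctgagattgTTCTGGAAGCTTCtggattct
HSPA8: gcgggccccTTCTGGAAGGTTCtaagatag
HSPA8, second: ggcgagcttGAAAGTTCCAGAAcgctgcgg
DNAJA1: cgccgggcgGAACTTTCCAGAAcgctcggt
HSPD1: gcattTTCTGGAAAGTTCTGGAAccgagcg
DNAJB1: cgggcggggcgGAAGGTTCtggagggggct
DNAJB1, second: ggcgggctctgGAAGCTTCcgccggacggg
HSPB1: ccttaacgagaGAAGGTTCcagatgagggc

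The first 7 stretches hold a run of at least 3 alternating units, and those of DNAJB1 and HSPB1 hold runs of 2. Distances are counted from the RefSeq start whose window holds the match, and some of the genes have more than 1 start. The HSP90AA1 element (chr14:102087112-102087141, minus strand) begins 88 bases upstream of the start, where GENCODE 29 has an exon of a longer HSP90AA1 transcript. The HSP90AB1 elements (chr6:44247769-44247798 and chr6:44247822-44247851, plus strand) begin 165 and 112 bases upstream, in an intron of longer transcripts. Those of HSPA8 (chr11:123062171-123062200 and chr11:123062346-123062375, minus strand) begin 55 and 230 bases upstream, in exons of longer transcripts. The DNAJA1 element (chr9:33025267-33025296, plus strand) begins 3 bases downstream of the start, in the first exon. The HSPD1 element (chr2:197500061-197500090, minus strand) is 18 bases long and begins 245 bases upstream of 1 of the 2 HSPD1 starts and 189 bases inside the gene from the other, and GENCODE 29 has exons of both HSPD1 and HSPE1 there. The DNAJB1 runs (chr19:14518456-14518485 and chr19:14518426-14518455, minus strand) begin 77 and 47 bases upstream, in an intron, and the HSPB1 stretch (chr7:76302480-76302509, plus strand) begins 182 bases upstream, outside the annotated transcripts. Further runs of 2 units, not printed, begin 68 bases upstream in HSP90AA1, 198 bases upstream in DNAJA1 and 1 base downstream of another start of DNAJB1.

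The search took 2 units as GAANNTTC or TTCNNGAA and 3 units as GAANNTTCNNGAA or TTCNNGAANNTTC, on both strands, and every match to 3 units also contains a match to 2. At least 2 units were found in 7 of the 10 genes and in 16.2% of 27305 genes with a RefSeq window (8 of 16 windows of the chaperone genes and 13.5% of all windows). A run of 3 units was found in 5 of the 10 genes and in 0.608% of all genes (5 of 16 windows and 0.49% of all windows). Among the 5 with 3 units, HSP90AA1, HSPD1 and DNAJA1 were higher in shVCAN tumours, HSP90AB1 was lower and HSPA8 was not called. DNAJB1, with 3 separate runs of 2 units, and HSPB1, with 1, were both lower, HSPB1 not under scaling by library size alone. HSPA4, HSPH1 and HSPE1 had no match in their windows, which says only that these letters are not there. A match likewise describes the letters and does not measure binding of HSF1. HSPE1 shares its promoter region with HSPD1, from which it is transcribed in the opposite direction with 104 bases between its start and the nearer HSPD1 start. The HSPD1 element lies 294 bases from the HSPE1 start, 44 bases outside the HSPE1 window.

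The HSP90 genes moved in opposite directions. HSP90AA1 (ENSG00000080824.19, chr14:102080738-102139699, minus strand, GRCh38) encodes the stress-inducible cytosolic HSP90α. Its level was 2207.5, 2171.2 and 2275.5 CPM (counts scaled to the TMM library size) in the shVCAN tumours, against 1358.5, 1354.6 and 1344.9 CPM in the shGFP tumours. All 3 shVCAN tumours lay well above all 3 shGFP tumours, and the shGFP tumours hardly differed among themselves. The log2 difference was 0.71 ± 0.040 (SE; 95% interval 0.63 to 0.79; edgeR adjusted p 4.18e-15). Among all tested genes, 13.1% had a larger log2 difference in either direction.

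HSP90AB1 (ENSG00000096384.20, chr6:44246166-44253888, plus strand) encodes the constitutive cytosolic HSP90β, whose protein is a close relative of HSP90α. Its level was 2557.7, 2611.3 and 2582.0 CPM in the shVCAN tumours, against 2980.4, 3108.8 and 3027.6 CPM in the shGFP tumours. Every shVCAN tumour lay below every shGFP tumour, by a smaller distance than for HSP90AA1. The log2 difference was -0.23 ± 0.038 (SE; 95% interval -0.31 to -0.16; edgeR adjusted p 9.05e-06). With library size alone as the scaling it was -0.068 and not called (adjusted p 0.208), which is -0.24 relative to the median of all genes under that scaling.

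Within each tumour the balance of the HSP90 genes can be read as a ratio of counts per exonic base, which does not depend on how libraries are scaled. The HSP90AA1 to HSP90AB1 ratio was 0.49009, 0.47212 and 0.50042 in the shVCAN tumours, against 0.25882, 0.24742 and 0.25224 in the shGFP tumours. The groups were far apart and HSP90AB1 had the higher level per length in all 6 tumours. The ratio was 1.93-fold higher in shVCAN tumours (log2 difference 0.95; exact two-sided permutation p 0.1, the smallest possible; 0.133 adjusted over 4 ratios). Summed over both genes, the level was 4802 ± 49.1 CPM in shVCAN tumours and 4392 ± 64.4 CPM in shGFP tumours (SD, n = 3 each).

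**Figure D1:**
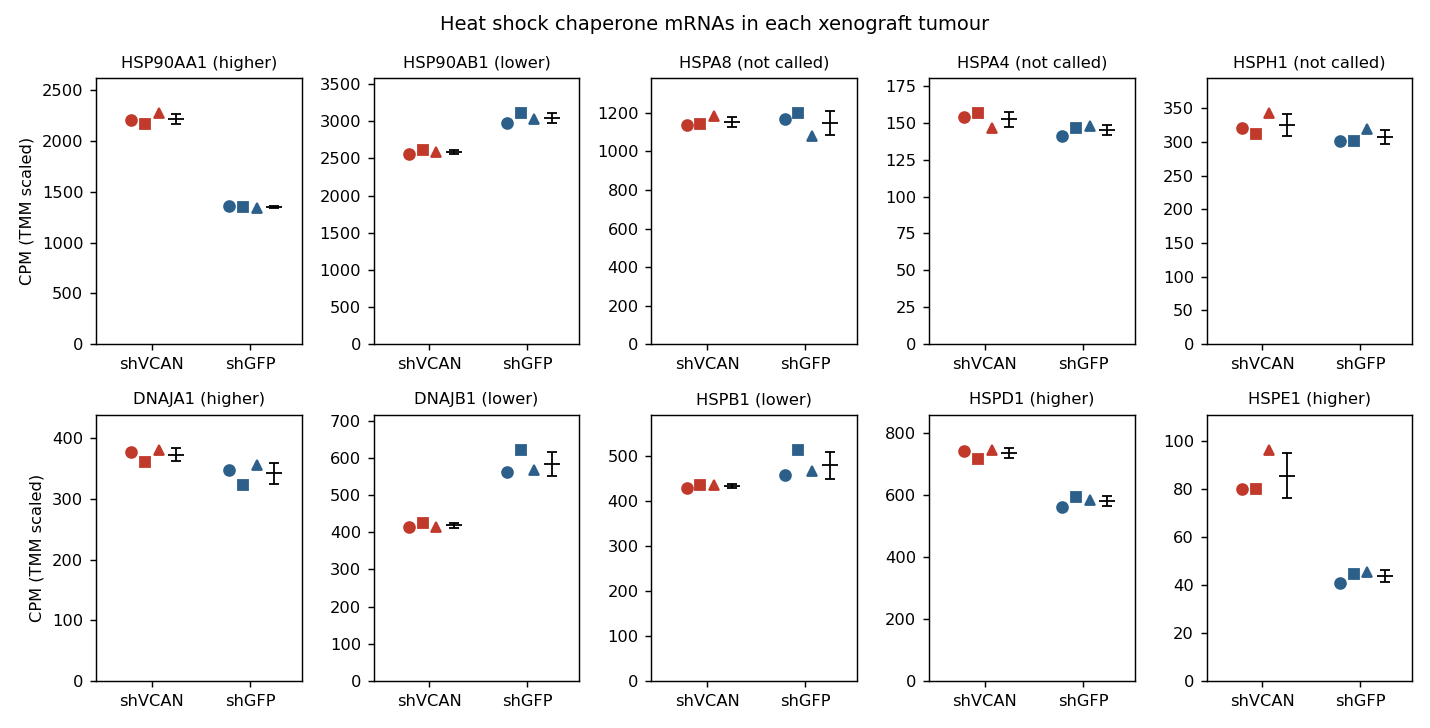
Level of each of the 10 chaperone messenger RNAs (CPM on TMM library sizes, linear axes from 0), with 1 point per tumour (circle, square and triangle for tumours 1, 2 and 3) and the mean ± SD of each group, shVCAN left of shGFP. The groups are separate in 7 panels and overlap in the panels of HSPA8, HSPA4 and HSPH1.

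The HSP70 and HSP110 genes showed the smallest differences. HSPA8 (ENSG00000109971.14, chr11:123057489-123063230, minus strand) encodes the constitutive cytosolic HSC70. Its level was 1134.8, 1140.2 and 1182.1 CPM in the shVCAN tumours, against 1168.0, 1198.9 and 1077.8 CPM in the shGFP tumours. The lowest and the highest of the 6 tumours both belonged to the shGFP group. The log2 difference was 0.0051 with a 95% interval from -0.085 to 0.095 (edgeR adjusted p 0.94). Its sign turned when shGFP tumour 3 or shVCAN tumour 3 was left out, and with library size alone it was 0.17, as was the median of all genes under that scaling.

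HSPA4 (ENSG00000170606.15, chr5:133051962-133106449, plus strand) and HSPH1 (ENSG00000120694.20, chr13:31134974-31162388, minus strand) encode HSP110-family proteins, the nucleotide exchange factors of HSP70. HSPA4 had 154.01, 156.55 and 146.61 CPM in the shVCAN tumours, against 141.22, 146.63 and 147.51 CPM in the shGFP tumours. HSPH1 had 320.77, 311.69 and 342.72 CPM in the shVCAN tumours, against 300.79, 300.76 and 318.98 CPM in the shGFP tumours. In both genes 1 shVCAN tumour lay within the shGFP range. The log2 differences were 0.071 (95% interval -0.043 to 0.18; edgeR adjusted p 0.333) for HSPA4 and 0.083 (95% interval -0.019 to 0.19; adjusted p 0.196) for HSPH1. With library size alone all 3 genes were called higher (adjusted p 0.00419 for HSPA8, 0.00169 for HSPA4 and 0.000261 for HSPH1), with log2 differences of 0.0032, 0.070 and 0.081 relative to the median of all genes. The HSPH1 to HSPA4 ratio per exonic base was 1.31 ± 0.11 in shVCAN tumours and 1.30 ± 0.0351 in shGFP tumours (SD, n = 3 each; exact two-sided permutation p 0.9).

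DNAJA1 and DNAJB1, the J-domain partners that deliver clients to HSP70 and stimulate its ATPase, differed in opposite directions, except with the length and GC correction. DNAJB1 (ENSG00000132002.8, chr19:14514770-14529770, minus strand), the human HSP40 that heat shock induces, had 414.54, 426.07 and 415.08 CPM in the shVCAN tumours, against 562.71, 621.82 and 568.44 CPM in the shGFP tumours. The groups did not overlap. The log2 difference was -0.48 ± 0.047 (SE; 95% interval -0.58 to -0.38; edgeR adjusted p 1.28e-09), the most negative of the 10 genes. Of its exonic bases, 6.21% are shared with TECR and MIR639.

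DNAJA1 (ENSG00000086061.16, chr9:33025211-33039907, plus strand), an HSP40 that carries a farnesyl group, had 377.39, 360.32 and 380.87 CPM in the shVCAN tumours, against 347.14, 323.19 and 355.15 CPM in the shGFP tumours. The groups did not overlap, but shVCAN tumour 2 and shGFP tumour 3 lay close together. The log2 difference was 0.13 ± 0.049 (SE; 95% interval 0.025 to 0.23; edgeR adjusted p 0.0415). The call was lost without shVCAN tumour 1 (adjusted p 0.138), shVCAN tumour 3 (0.134), shGFP tumour 1 (0.0533) or shGFP tumour 2 (0.149), and the sign turned with a correction for how counts in each tumour vary with exonic length and base composition (GC content; -0.079, adjusted p 0.16). The DNAJB1 to DNAJA1 ratio per exonic base was 0.817, 0.879 and 0.810 in the shVCAN tumours, against 1.21, 1.43 and 1.19 in the shGFP tumours. DNAJA1 was thus the more abundant per length in every shVCAN tumour and DNAJB1 in every shGFP tumour, a 0.657-fold ratio (exact two-sided permutation p 0.1, the smallest possible; 0.133 adjusted over 4 ratios). Without division by length, DNAJB1 had the higher CPM in every tumour, so which gene leads depends on the exonic lengths used. The ratio was not computed with the length and GC correction, which gave a log2 difference of -0.46 for DNAJB1.

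HSPB1 (ENSG00000106211.9, chr7:76302544-76304295, plus strand) encodes HSP27, a small heat shock protein that holds unfolding proteins without using ATP and binds actin filaments. It had 429.82, 435.64 and 436.56 CPM in the shVCAN tumours, against 459.04, 514.86 and 466.94 CPM in the shGFP tumours. All shVCAN tumours lay below the shGFP tumours, of which shGFP tumour 2 was the highest. The log2 difference was -0.15 ± 0.048 (SE; 95% interval -0.24 to -0.047; edgeR adjusted p 0.0159). Without shGFP tumour 2 there was no call (-0.082, adjusted p 0.201), nor without shVCAN tumour 1 (adjusted p 0.0683) or with upper quartile scaling (adjusted p 0.0771). The sign turned with library size alone (0.020, adjusted p 0.801), which is -0.15 relative to the median of all genes under that scaling.

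The mitochondrial chaperonin genes were both higher in the shVCAN tumours. HSPD1 (ENSG00000144381.17, chr2:197486581-197516737, minus strand) encodes HSP60, the barrel in which imported proteins fold. Its level was 744.0, 718.04 and 746.89 CPM in the shVCAN tumours, against 562.96, 594.76 and 583.11 CPM in the shGFP tumours. The shVCAN tumours lay above the shGFP tumours without overlap, with a log2 difference of 0.34 ± 0.044 (SE; 95% interval 0.25 to 0.43; edgeR adjusted p 1.71e-07).

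HSPE1 (ENSG00000115541.11, chr2:197499994-197503457, plus strand) encodes HSP10, the lid of that barrel. Its counts were 1106, 1140 and 1325 in the shVCAN tumours, against 492, 483 and 501 in the shGFP tumours. On the CPM scale these were 80.084, 80.244 and 96.455 in the shVCAN tumours, against 40.87, 44.767 and 45.647 in the shGFP tumours. Each shVCAN tumour had more than any shGFP tumour, and shVCAN tumour 3 was the highest. The log2 difference of 0.97 ± 0.080 (SE; 95% interval 0.81 to 1.13; edgeR adjusted p 2.92e-11) was the largest of the 10 genes, and the smallest count, 483, carries a counting error of 4.55%.

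HSPD1 and HSPE1 lie head to head and share 281 exonic bases in the annotation, and 23.9% of HSPE1's exonic bases are shared with HSPD1 or with the readthrough gene HSPE1-MOB4. Whether counting used the strand is not given in the labels, so reads in the shared bases cannot be assigned to one gene with certainty. HSPE1-MOB4 was listed at 0 in all 6 libraries. The HSPD1 to HSPE1 ratio per exonic base was 4.33, 4.17 and 3.61 in the shVCAN tumours, against 6.42, 6.19 and 5.95 in the shGFP tumours. It was lower in every shVCAN tumour (log2 difference -0.62; exact two-sided permutation p 0.1, the smallest possible; 0.133 adjusted over 4 ratios), although both genes were higher there. Summed over both genes, the level was 822 ± 22.6 CPM in shVCAN tumours and 624 ± 18.3 CPM in shGFP tumours (SD, n = 3 each).

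**Figure D2:**
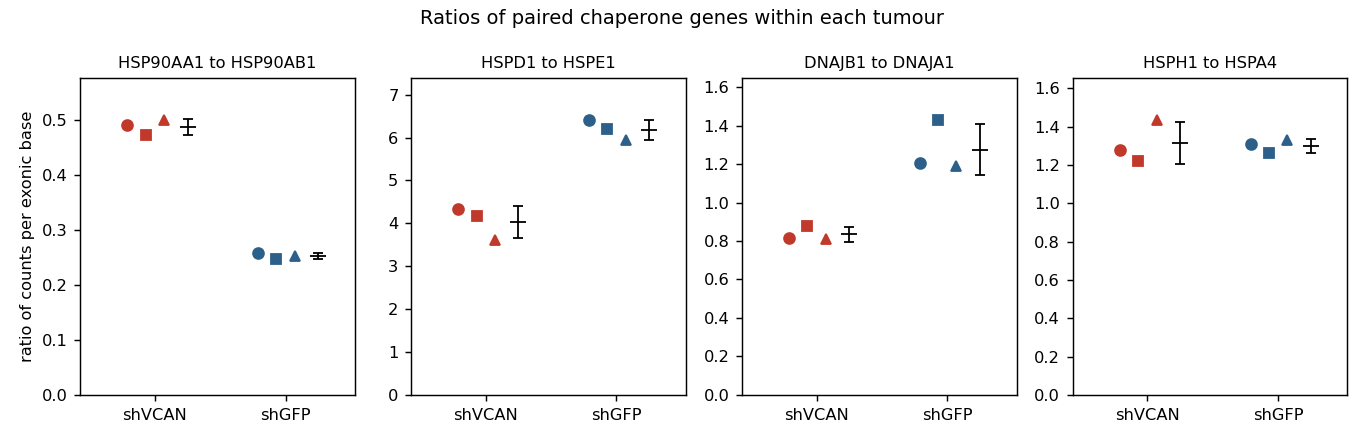
Ratio of counts per exonic base between 4 pairs of chaperone genes, with 1 point per tumour and the mean ± SD of each group, shVCAN left of shGFP, on linear axes from 0. The HSP90AA1 to HSP90AB1 ratio is higher in all shVCAN tumours, the HSPD1 to HSPE1 and DNAJB1 to DNAJA1 ratios are lower, and the HSPH1 to HSPA4 ratios overlap.

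Per kilobase of exonic sequence, HSP90AB1 had the highest level of the 10 genes in both groups, 867 CPM per kb in shVCAN tumours and 1019.8 CPM per kb in shGFP tumours. HSP90AA1 was next in shVCAN tumours at 423 CPM per kb, but at 258 CPM per kb in shGFP tumours it came after HSPB1, at 294 CPM per kb. HSPA8 had rank 4 in both groups, at 238 CPM per kb in shVCAN tumours and 237 CPM per kb in shGFP tumours. HSPD1, DNAJA1 and DNAJB1 followed in the middle, with DNAJB1 last of these in shVCAN tumours and first in shGFP tumours. HSPE1, HSPH1 and HSPA4 were the lowest, and HSPE1 stood above the other two in shVCAN tumours at 43.3 CPM per kb and below them in shGFP tumours at 22.1 CPM per kb. Neighbours in these orders had ranges over tumours that did not overlap, except HSPE1 and HSPH1 in shVCAN tumours. The exonic length counts every annotated isoform, so a gene with long unused exons reads too low on this scale.

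All 10 genes together gave 8420.6, 8411.2 and 8604.7 CPM in the shVCAN tumours, against 7921.7, 8209.1 and 7936.0 CPM in the shGFP tumours. The summed level including HSP90AA1 was higher in every shVCAN tumour, with means of 8479 ± 109 CPM in shVCAN tumours and 8022 ± 162 CPM in shGFP tumours (SD, n = 3 each). Without HSP90AA1 the order under TMM scaling was the reverse, with 6213.1, 6240.0 and 6329.3 CPM in the shVCAN tumours. All lay below the 6563.2, 6854.5 and 6591.1 CPM in the shGFP tumours. The sums were not computed with library size alone, which gave 7 of the 10 genes higher and 1 lower. The order without HSP90AA1 is thus shown for TMM scaling only and may turn with library size alone. Many of these genes have processed pseudogenes, near-identical copies that can take reads from them. The 82 annotated pseudogenes of the 10 genes held 362 counts over all libraries, against 625027 counts in the genes themselves. HSPE1 had the most copies, 26, and their counts came to 1.03% of its own and to at most 1.81% in a library. The copy with the most counts was HSP90AB3P with 72, followed by HSPD1P1 with 59, and adding these counts to the parent genes changed no call among the 10. Reads that match a gene and its copy equally may have been counted at neither, since the counting program is not given. These counts cannot show how many reads a gene lost in that way.

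**Figure D3:**
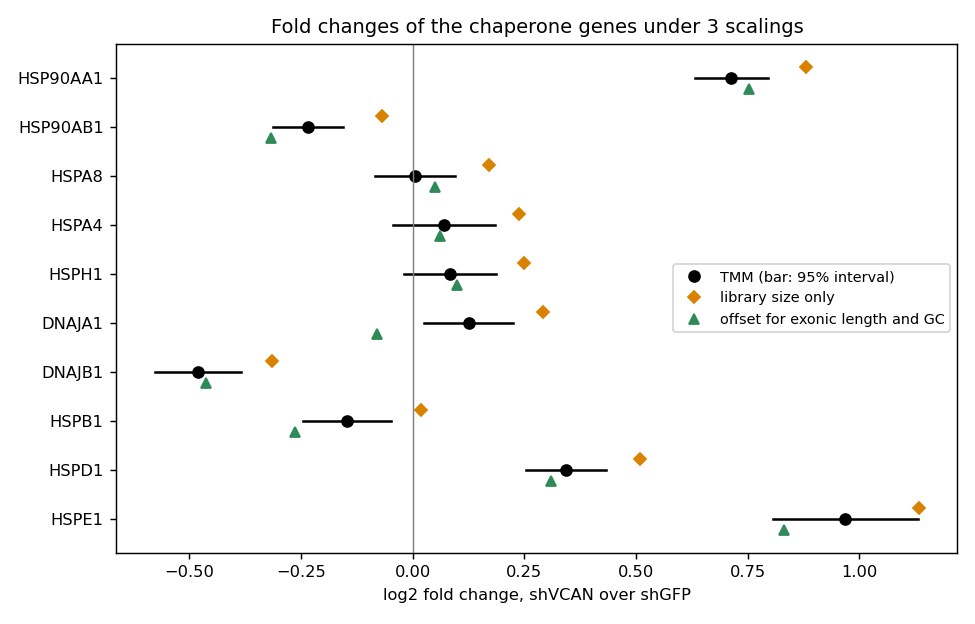
Log2 difference of each chaperone gene, shVCAN over shGFP, under TMM scaling (circles, bars show the 95% interval), scaling by library size alone (diamonds) and the length and GC correction (triangles). HSP90AA1, DNAJB1, HSPD1 and HSPE1 keep their side of 0 by a wide margin, DNAJA1 crosses 0 with the length and GC correction, and HSPB1 crosses 0 with library size alone.

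Tumours are mixtures, and in bulk tissue fewer cells of a type and less RNA per cell cannot be told apart. Under TMM scaling, sums of the fibroblast and pericyte, endothelial, keratinocyte, and PC-3 and epithelial lists differed between the groups without overlap. Those of the skeletal muscle and macrophage lists overlapped. Whether these RNAs came from host cells was not tested, nor was their part in the chaperone differences. The fibroblast and pericyte list (8 of 10 markers tested, 5 lower and 1 higher) summed to 395.94 to 491.11 CPM in shVCAN tumours and 835.76 to 941.92 CPM in shGFP tumours. Most of this sum was COL1A1 (mean 300 CPM in shVCAN and 617 CPM in shGFP tumours). The endothelial list (6 of 10 tested, 4 lower and 1 higher) summed to 112.83 to 127.87 CPM in shVCAN tumours and 170.56 to 177.68 CPM in shGFP tumours. VWF, ERG, EMCN and CLDN5 of the endothelial list and DCN, LUM and PDGFRB of the fibroblast list were near 0. The skeletal muscle list (9 of 12 tested, 6 lower) had overlapping sums of 209.8 to 317.6 CPM in shVCAN tumours and 268.56 to 472.68 CPM in shGFP tumours. Macrophage markers were near 0 throughout, at 3.66 to 5.75 CPM in shVCAN tumours and 3.90 to 5.75 CPM in shGFP tumours, with CD163, C1QA, C1QB, C1QC and TYROBP at 0. The keratinocyte list (2 of 8 tested, both higher) summed to 113.19 to 113.9 CPM in shVCAN tumours and 87.74 to 91.387 CPM in shGFP tumours, with KRT1 and DSG3 at 0. Nearly all of this sum was KRT10 (mean 72.7 CPM in shVCAN and 53.6 CPM in shGFP tumours) and KRT15 (40.3 and 34.2 CPM). KRT5, KRT14 and TP63 were near 0. The list of PC-3 and epithelial genes (10 of 12 tested, 4 lower) summed to 3093.1 to 3175.1 CPM in shVCAN tumours and 3317.1 to 3544.0 CPM in shGFP tumours. The means were 3139 ± 41.7 CPM and 3410 ± 119 CPM (SD, n = 3 each).

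Partners of these chaperones passed the test in both directions. Of all tested genes 19.2% were higher and 21.1% lower, the shares to set beside the counts in this and the following lists. Of 18 tested HSP90 co-chaperones 6 were higher and 2 lower, with a median log2 difference of 0.075 (11 and 1 with library size alone). PTGES3, the p23 protein that stabilises the closed HSP90 dimer, had 484.05, 487.87 and 520.42 CPM in shVCAN tumours, against 368.83, 369.9 and 345.68 CPM in shGFP tumours (log2 difference 0.46, edgeR adjusted p 4.05e-09). SUGT1, an adaptor of HSP90 in kinetochore and immune receptor assembly, and CACYBP, an adaptor of ubiquitin ligases, were higher by 0.48 and 0.49 (adjusted p 6.08e-06 and 4.23e-07). UNC45A, which brings HSP90 to myosin, was lower, with 60.6 ± 2.45 CPM in shVCAN tumours and 97.5 ± 5.93 CPM in shGFP tumours (SD, n = 3 each; log2 difference -0.69, adjusted p 1.56e-09), and 20.045% of its exonic bases are shared with other genes.

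Among 5 tested paralogs of HSP70 and HSP110, 2 were higher and 1 lower. HSPA4L, an HSP110 relative, was higher (0.49, adjusted p 0.00021), as was HSPA14 (0.37, adjusted p 0.0259), a ribosome-associated HSP70. HSPA14 lost its call without shVCAN tumour 3 (0.24, adjusted p 0.21), shGFP tumour 2 or shGFP tumour 3 and with the length and GC correction (0.18, adjusted p 0.268). HSPA6, a strictly heat-inducible human HSP70, had 13.685, 13.656 and 12.958 CPM in shVCAN tumours, against 20.518, 19.556 and 22.869 CPM in shGFP tumours, and was lower (-0.64, adjusted p 7.13e-05). HSPA1A and HSPA1B, the main inducible HSP70 genes, were listed at 0 in all 6 libraries, as were 63 of the 70 protein-coding genes within 500000 bases of HSPA1A, against 17.1% of protein-coding genes in the whole table. A level of these genes can therefore not be read from the table.

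Of 8 tested HSP70 cofactors 3 were higher and 1 lower (median -0.025; 4 lower with the length and GC correction). BAG2 and BAG4, which carry the BAG domain that releases nucleotide from HSP70, were higher by 0.49 and 0.46 (edgeR adjusted p 3.54e-06 and 0.00399), and 44.2% of BAG2's exonic bases are shared, mostly with RAB23. BAG1 was higher by 0.24 (adjusted p 0.0271), a call lost without shVCAN tumour 1, shGFP tumour 1 or shGFP tumour 3, and BAG5 was lower (-0.37, adjusted p 0.00109); scaled by library size alone, BAG5 was not called (adjusted p 0.0688). Of 18 tested J-domain genes of the cytosol and nucleus 4 were higher and 4 lower (median -0.029), against 9 higher and 1 lower with library size alone and 2 higher without shVCAN tumour 1. DNAJC5, the cysteine string protein of secretory vesicles, had a log2 difference of -0.42 (adjusted p 1.08e-07) and DNAJC13, an endosomal protein, one of -0.33 (adjusted p 0.00217; 0.127 with library size alone). DNAJC9, a histone chaperone, was higher by 0.30 (edgeR adjusted p 1.92e-05), and 29.1% of its exonic bases are shared, mostly with FAM149B1. DNAJC8, a splicing-associated protein, was higher by 0.22 (edgeR adjusted p 0.00325, but 0.249 with the length and GC correction).

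In mitochondria, 3 of 15 other tested chaperones and quality proteases were higher and 12 were not called (median -0.0038). With library size alone 7 were higher, and with the length and GC correction 6 were higher and 1 lower. Without shVCAN tumour 2, 1 was lower. DNAJC19, of the import motor, was higher by 0.45 (edgeR adjusted p 0.000138), HSCB, which delivers iron-sulfur cluster proteins to mitochondrial HSP70, by 0.46 (adjusted p 0.00107), and GRPEL1, the nucleotide exchange factor of mitochondrial HSP70, by 0.26 (adjusted p 0.00504). Of HSCB's exonic bases, 20.6% are shared with CHEK2. HSPA9, the mitochondrial HSP70 itself, had 303 ± 5.40 CPM in shVCAN tumours and 288 ± 10.9 CPM in shGFP tumours (SD, n = 3 each). It was not called (edgeR adjusted p 0.241). All 13 messenger RNAs of the mitochondrial genome were lower in shVCAN tumours (median -1.40), while the nuclear-encoded HSPD1 and HSPE1 were higher. Leaving these 13 out before TMM scaling changed no call among the 10 chaperone genes. TMM itself trims genes with extreme differences, so this step could change little.

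Of 3 tested small heat shock proteins beside HSPB1, IFT25 (0.40, edgeR adjusted p 0.00266) and HSPB8 (0.27, adjusted p 0.00712), a partner of BAG3, were higher. CRYAB, αB-crystallin of lens and muscle, had 17.088, 14.852 and 9.2451 CPM in shVCAN tumours, against 18.358, 17.425 and 22.96 CPM in shGFP tumours (log2 difference -0.51, adjusted p 0.00994). The call on CRYAB was lost without shVCAN tumour 3 (-0.29, adjusted p 0.117), which was the lowest, without shGFP tumour 3 (adjusted p 0.0876) and with library size alone (adjusted p 0.0771), and that on HSPB8 without shGFP tumour 1 (adjusted p 0.0608). Of CRYAB's exonic bases, 20.6% are shared with HSPB2 and HSPB2-C11orf52. Of 5 tested heat shock factors and regulators 2 were higher, and 4 with library size alone. HSBP1, which binds and restrains HSF1, had 254.95, 239.75 and 252.09 CPM in shVCAN tumours, against 185.49, 168.78 and 177.85 CPM in shGFP tumours (log2 difference 0.49, adjusted p 1.07e-08). HSF2BP, a meiotic protein that binds HSF2, was near 1 to 4 CPM (log2 difference 1.10, adjusted p 0.012), a call lost without shVCAN tumour 2 or shGFP tumour 3. HSF1 had 3 counts over all 6 libraries and was not tested. Of the 44 protein-coding genes within 500000 bases of it, 8 were at 0 (18.2%, against 17.1% in the whole table). Whether so few counts reflect the level of HSF1 in the tumours or a feature of the table was not tested.

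Of 13 tested stress-inducible targets of HSF1 outside the 10 genes, 6 were higher, 3 lower and 4 not called (median 0.044). Their members with the smallest p were SERPINH1, the collagen chaperone HSP47 of the endoplasmic reticulum, which was lower (-0.47, edgeR adjusted p 3.15e-09) beside COL1A1 of the fibroblast list (-1.04, adjusted p 2.26e-13), then CACYBP, MRPL18 (higher by 0.39, adjusted p 4.01e-05), a mitochondrial ribosomal protein, and HSPA6. Early response genes, which handling of tissue can raise, were lower in 11 of 13 tested (median -0.66), among them JUNB, DUSP1, FOS and IER2. With library size alone 6 were lower, and without shGFP tumour 2 the number was 7. Of IER2's exonic bases, 30.8% are shared with AC011446.2. The part of the early response genes in the chaperone differences was not tested.

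**Figure D4:**
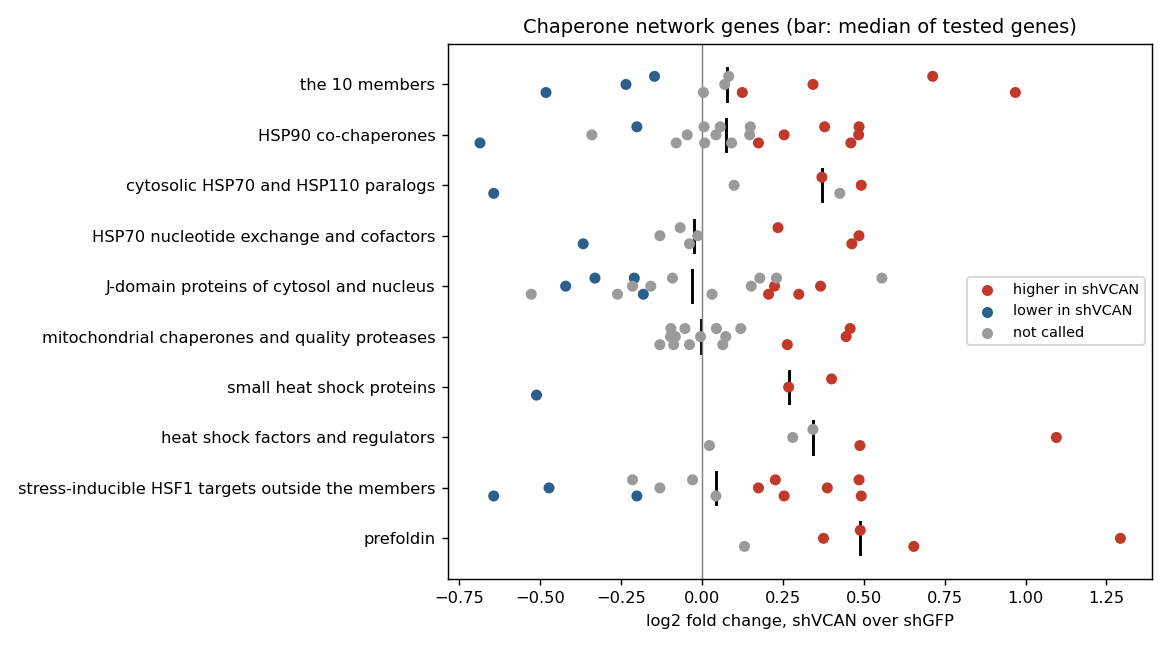
Log2 difference, shVCAN over shGFP under TMM scaling, of the 10 chaperone genes and of the tested genes of 9 related lists, with 1 point per gene coloured by its call and a bar at the median of each list. Called genes lie on both sides of 0 in most lists, and the prefoldin genes lie to the right of 0.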

How the data were processed

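The submitters' processing notes list STAR, Trim Galore and DESeq2 beside build hg38, without versions or roles. The authors deposited raw read counts per gene for 6 samples. The counting program, annotation and strand setting, and whether mouse reads were removed, are not given in the labels. The growth protocol mentions a further group, which was not analysed here.

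Second copies of 45 pseudoautosomal genes were left out of 67071 entries. Symbols came from a symbol table (60370) and GENCODE 29 (289), and 6367 identifiers had none. Coordinates, exonic length and pseudogenes came from GENCODE 29 on GRCh38, and promoter sequence from RefSeq on GRCh38.p14.

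Groups were compared with edgeR 4.0.16 in R 4.3.3 (quasi-likelihood test, TMM, filterByExpr, group as the only term), with Benjamini-Hochberg adjustment over 16254 genes. The SE is the log2 difference divided by the square root of F. Ratios within tumours were tested by exact two-sided permutation. Scripts were tested on simulated data.

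The rule for named genes takes the 10 chaperone genes, VCAN and up to 4 called genes with the smallest p from each of 12 lists; genes named beyond it were chosen after their values were seen. The 10 genes and all lists were chosen with earlier results of these data known. Depth was 11253058 to 13327617 counts per library, and counting errors do not cover amplification. Alternatives were DESeq2 1.42.0 (size factors and Wald test), limma-voom (limma 3.58.1), upper quartile factors, library size alone, mitochondrial messenger RNAs removed before scaling, no filter, at least 1 CPM in 3 samples, the replicate number as a block, leaving out each tumour in turn, a length and GC correction, pseudogene counts added, and an adjusted p under 0.01.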

Additional observations from a re-analysis of the deposited data

How the results depend on the processing

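Over 18 alternatives, HSP90AA1 (0.69 to 0.88), HSPE1 (0.83 to 1.13), HSPD1 (0.31 to 0.51), DNAJB1 (-0.50 to -0.32) and VCAN kept their direction and call. Of 180 values of the 10 chaperone genes, 163 kept both direction and side of the threshold. Library size alone gave 5228 genes higher and 1890 lower, against 3120 and 3425 with TMM, and 7 of the chaperone genes higher and 1 lower. By construction it takes no account of the smaller share of mitochondrial messenger RNA in shVCAN tumours. The part of that share in these counts was not tested. Library size alone gave log2 differences of -0.068 for HSP90AB1 and 0.020 for HSPB1, neither called, and of 0.17 for HSPA8, 0.24 for HSPA4 and 0.25 for HSPH1, all called. The length and GC correction gave -0.079 for DNAJA1 and upper quartile factors -0.11 for HSPB1; the cause was not tested. At an adjusted p under 0.01, DNAJA1 (0.13) and HSPB1 (-0.15) were not called. Leaving out 1 tumour gave -0.034 to 0.048 for HSPA8, 0.098 to 0.16 for DNAJA1, -0.17 to -0.082 for HSPB1 and -0.054 to 0.062 for the log2 difference of the HSPH1 to HSPA4 ratio. With 2 tumours left in a group, these calls rest on fewer samples. With the replicate number as a block, 3083 genes were higher and 3428 lower, and the same 4 chaperone genes were higher and 3 lower. Same-numbered tumours correlated at 0.0493, 0.0243 and -0.0625, and different-numbered tumours at -0.11 to 0.0817. No pairing by number was detected, which does not show that there was none. Of 716 values of the named list genes, 38 lost their call and none changed direction. HSPE1, with the fewest counts of the 10 genes, has the widest counting error.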

Other observations

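Prefoldin, a hexamer that passes newly made actin and tubulin to the cytosolic chaperonin, was higher in shVCAN tumours for 4 of 5 tested subunits, with a median log2 difference of 0.49, against 19.2% of all tested genes higher. PFDN4 had 163.43, 159.57 and 177.62 CPM in shVCAN tumours, against 70.858, 71.275 and 62.047 CPM in shGFP tumours. Its log2 difference of 1.29 ± 0.066 (SE; edgeR adjusted p 5.57e-16) exceeded that of every one of the 10 chaperone genes. PFDN5 was higher by 0.65 (adjusted p 3.43e-12), PFDN2 by 0.49 (adjusted p 3.56e-09) and VBP1 by 0.38 (adjusted p 0.000118), and the call on VBP1 was lost with the length and GC correction (0.051, adjusted p 0.593). PFDN6 was listed at 0 in all libraries, as were 25 of 38 protein-coding genes within 500000 bases of it.

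Receptors and shuttles that carry misfolded proteins to autophagy or the proteasome were lower for 3 of 8 tested genes (median log2 difference -0.18), against 21.1% of all tested genes lower. Without shVCAN tumour 1, 5 of the 8 were lower, and with library size alone 3 of the 8 were higher. OPTN, a receptor of ubiquitinated cargo, had 47.4 ± 1.36 CPM in shVCAN tumours and 57.1 ± 5.89 CPM in shGFP tumours (SD, n = 3 each; log2 difference -0.27, edgeR adjusted p 0.00756). TAX1BP1 (-0.20, adjusted p 0.0129) and UBQLN4 (-0.18, adjusted p 0.0287) differed by less, and all 3 calls were lost with library size alone and without shGFP tumour 2. The call on OPTN was also lost without shGFP tumour 1, that on TAX1BP1 with the length and GC correction, and that on UBQLN4 with this correction, upper quartile factors or no filter and without any other tumour but shVCAN tumour 1.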
